A study of Mus musculus with 10 samples.

Results

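CDK inhibitors are proteins that bind cyclin-dependent kinases and hold cells in G1. Occupancy by Polycomb group (PcG) proteins was examined at 6 of their genes, Cdkn2a, Cdkn2b, Cdkn2c, Cdkn1a, Cdkn1b and Cdkn1c, out of 22350 protein-coding genes annotated on the 20 mouse chromosomes that hold peaks. The 6 genes were chosen by name, and for each the window was the gene body plus 10 kb on either side. ChIP-seq for Ring1b and H3K27me3 was available in J1 mouse ESCs and in NSCs that, by the labels, were made from J1 ESCs by differentiation in culture. Cbx2 and Ezh2 were measured in ESCs alone. ESCs were grown on inactivated fibroblast feeders, which were depleted before fixation, with 15% serum and leukemia inhibitory factor at 1000 U/ml. NSCs were grown with EGF and FGF at 10 ng/ml. No group carried a transgene or an altered allele by the labels, all were kept under standard growth conditions, and all were fixed for 10 min in 1% formaldehyde. For Ring1b the methods add an earlier EGS cross-linking step. Every list rests on a single library (1 per target in a cell type). No difference below therefore has a replicate check or a test, and the sequencing depth is unknown.

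The INK4 proteins, which include the products of Cdkn2a, Cdkn2b and Cdkn2c, bind CDK4 and CDK6 and keep them from pairing with D-type cyclins. The CIP/KIP proteins, encoded by Cdkn1a, Cdkn1b and Cdkn1c, bind complexes of cyclins with CDKs, including those of CDK2. When CDKs are held inactive, Rb and its relatives stay unphosphorylated and E2F target genes stay off. The Cdkn2a gene has separate promoters for the INK4 protein p16 (Ink4a) and for p19 (Arf), which is read in another frame and stabilizes p53. With Cdkn2b it forms the Ink4a/Arf locus, a classical target of the PcG protein Bmi1 in cultured cells, where its derepression accompanies senescence. Ring1b and Cbx2 are subunits of PRC1, which ubiquitinates histone H2A and compacts chromatin. Ezh2 is the methyltransferase of PRC2 and deposits H3K27me3.

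Bases upstream of 4 start sites are shown because these promoters differ in their peaks and in their CpGs, the dinucleotides found densely at most PcG-bound promoters. Each run holds 200 bases of mm9 in the direction of transcription and ends 1 base before the annotated start, with CpGs in capitals. All but Cdkn1b are on the reverse strand.
Arf, Cdkn2a gene start, chr4:88940558-88940757: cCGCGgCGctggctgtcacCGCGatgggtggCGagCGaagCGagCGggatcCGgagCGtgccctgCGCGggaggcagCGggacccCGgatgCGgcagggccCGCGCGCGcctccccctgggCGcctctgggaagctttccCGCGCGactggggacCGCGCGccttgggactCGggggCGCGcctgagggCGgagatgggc
Ink4a, inside Cdkn2a, chr4:88928097-88928296: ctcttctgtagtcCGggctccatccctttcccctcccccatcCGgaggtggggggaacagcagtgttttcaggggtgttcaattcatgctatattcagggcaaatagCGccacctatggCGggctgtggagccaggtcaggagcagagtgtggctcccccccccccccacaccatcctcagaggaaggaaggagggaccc
Cdkn2c, chr4:109339795-109339994: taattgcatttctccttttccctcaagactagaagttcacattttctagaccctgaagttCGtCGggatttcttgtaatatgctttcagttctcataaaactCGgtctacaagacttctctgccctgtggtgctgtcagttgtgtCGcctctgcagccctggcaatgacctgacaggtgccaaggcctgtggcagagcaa
Cdkn1b, chr6:134870219-134870418: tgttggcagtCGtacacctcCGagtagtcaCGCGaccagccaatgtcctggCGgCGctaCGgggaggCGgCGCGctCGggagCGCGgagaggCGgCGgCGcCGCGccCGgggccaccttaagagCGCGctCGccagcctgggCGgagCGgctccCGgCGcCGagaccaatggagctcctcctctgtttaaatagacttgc
The Arf run holds 31 CpGs, a number reached by 2.64% of all gene starts, and the Ink4a run holds 4, reached by 65.3%. The Cdkn1b run holds 27, reached by 5.34%, and the Cdkn2c run holds 4. The Arf and Ink4a runs lie inside ESC Ring1b peaks. The Cdkn2c run lies outside its peak but for the 6 bases next to the start, so its CpGs do not describe the sequence under that peak. In the 1001 bp centred on the Cdkn2c start there are 59 CpGs. The GC box GGGCGG, searched on both strands, occurs 1 time upstream of Arf and 1 time upstream of Cdkn1b. The Ink4a and Cdkn2c runs do not hold these letters. Of all gene starts, 38% have a GGGCGG in their 200 upstream bases.

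Among the 6 genes, Cdkn2a, Cdkn2b, Cdkn2c and Cdkn1c had PcG peaks in ESCs, and the CIP/KIP genes Cdkn1a and Cdkn1b had none in either cell type. In ESCs, Ring1b peaks lay in the windows of Cdkn2a, Cdkn2b, Cdkn2c and Cdkn1c, 4 of the 6 genes, where 11.5% of all protein-coding genes had one. H3K27me3 peaks lay in the windows of Cdkn2a, Cdkn2c and Cdkn1c (3 of 6, 9.97% of all genes). Cbx2 peaks were found at Cdkn2a and Cdkn2c (2 of 6, 3.09%) and Ezh2 peaks at Cdkn2c and Cdkn1c (2 of 6, 5.28%). In NSCs, Ring1b peaks were left at Cdkn2a alone among the members (1 of 6, 4.64% of all genes) and H3K27me3 peaks at Cdkn1c alone (1 of 6, 4.7%). In NSCs, Cdkn2a therefore had Ring1b peaks and no H3K27me3 peak, and Cdkn1c had the reverse. The Cdkn1c call rests on 1 peak of 1600 bp, and with peaks at least 2 kb wide no member had an NSC H3K27me3 peak. Under the same limit, ESC H3K27me3 peaks stayed at Cdkn1c alone (1 of 6), and those at Cdkn2a and Cdkn2c dropped out. The median width over all H3K27me3 peaks was 1800 bp in ESCs and 1600 bp in NSCs, below this limit. The share of all genes under the limit was not computed, so the losses cannot be read as particular to the members. Among all genes, 2.79% had an NSC Ring1b peak without an H3K27me3 peak in the window, and 2.85% had the reverse.
Gene starts lie inside the windows, so that they can be held at most as often as windows. An ESC Ring1b peak held the gene start of Cdkn2a, Cdkn2c and Cdkn1c (3 of 6, against 7.03% of all genes). ESC Ezh2 and H3K27me3 peaks held only the start of Cdkn1c (1 of 6 each, against 2.56% and 4.31%), and Cbx2 peaks held none of the gene starts (0 of 6, against 1.15%). No NSC peak held the gene start of any member (0 of 6 for Ring1b and for H3K27me3, against 1.74% and 1.77%). When the start of any annotated transcript was accepted, Cdkn2a was added to the Cbx2 list (1 of 6, 1.36% of all genes) and to the NSC Ring1b list (1 of 6, 2.04%), both through Ink4a. The other lists kept their counts of members, at 3 for ESC Ring1b (8% of all genes), 1 for Ezh2 (3.12%), 1 for ESC H3K27me3 (5.28%) and 0 for NSC H3K27me3 (2.13%).

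**Figure D1:**
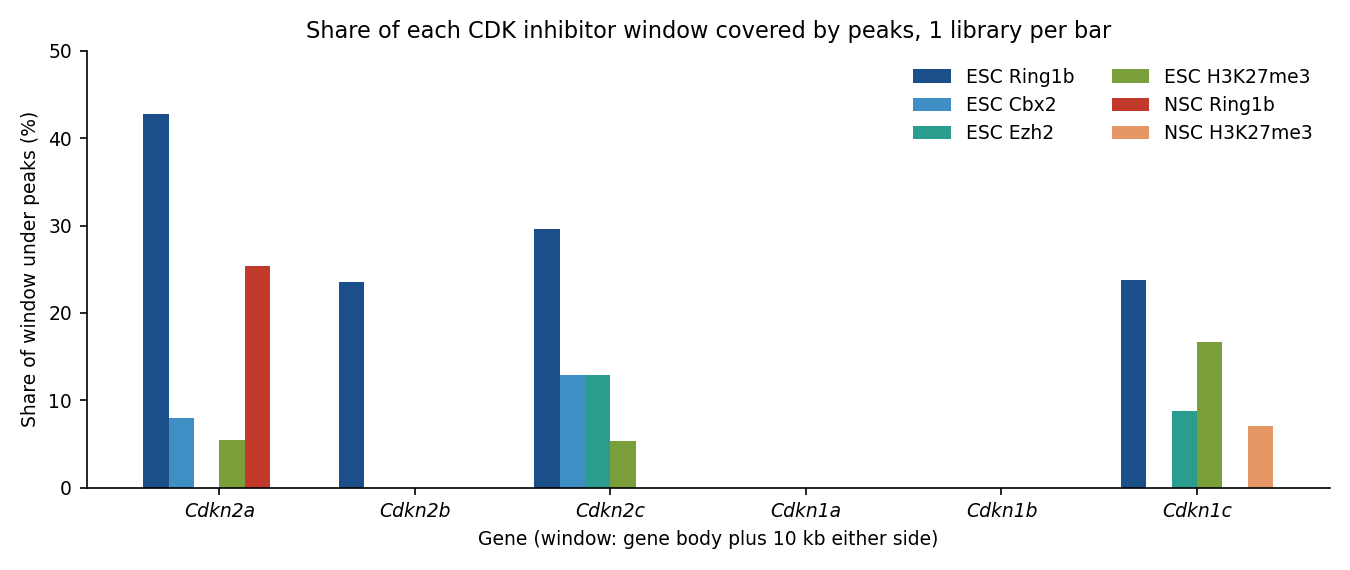
Bars give the share of each window (gene body plus 10 kb either side, in percent) under the peaks of 1 list, with ESC lists in blue and green and NSC lists in red and orange. ESC Ring1b covered from 23.5% at Cdkn2b to 42.8% at Cdkn2a among the 4 genes with peaks, and Cdkn1a and Cdkn1b have no bar.

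Across the 6 windows the lists held 23 distinct peaks, 9 of them ESC Ring1b. These 9 were 1800 to 6600 bp wide, and the median over all 2335 ESC Ring1b peaks was 2200 bp. The other ESC lists held 3 Cbx2 peaks, 3 Ezh2 peaks and 4 H3K27me3 peaks, and the NSC lists held 3 Ring1b peaks and 1 H3K27me3 peak. None of the 9 ESC Ring1b peaks met all of Cbx2, Ezh2 and H3K27me3, as 15.9% of all ESC Ring1b peaks did. Cdkn2c and Cdkn1c each had 1 Ring1b peak that met Ezh2 and H3K27me3 (2 of 9, against 20% of all). Another 4 of the 9 met no other ESC list (35.6% of all), and 3 met Cbx2 with at most 1 further list. Each of those 3 exact combinations was met by 1 peak. They made up 0.942% of all ESC Ring1b peaks for Cbx2 alone, 0.6% for Cbx2 with Ezh2 and 0.857% for Cbx2 with H3K27me3. These shares leave out the 15.9% that met Cbx2 with both other lists, so they do not give how often Cbx2 was met at all. Cdkn2a held the peaks with Cbx2 alone and with H3K27me3, and Cdkn2c the one with Ezh2.

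Cdkn2a (ENSMUSG00000044303.5) lies on the reverse strand of chromosome 4 from 88920377 to 88940557 (mm9) and has 4 exon blocks. The Arf transcript starts at 88940557 and the Ink4a transcript at 88928096, which is 12461 bp further along. The ESC Ring1b list had 4 peaks in the 40.2 kb window, which covered 17.2 kb or 42.8% of it, a share reached by 0.626% of all genes. ESC Cbx2 covered 7.96% and ESC H3K27me3 5.48%, with 2 peaks each, and ESC Ezh2 had no peak. In NSCs, Ring1b had 3 peaks over 10.2 kb, or 25.4% of the window, a share reached by 0.501% of all genes. Genes with any NSC Ring1b peak had a median of 3.29% of their window covered. NSC H3K27me3 had no peak, and the nearest lay 348 kb from the Arf start.
The peaks differed between the Arf and Ink4a promoters. The Arf start lay in an ESC Ring1b peak of 3400 bp (88939401 to 88942800) that overlapped no peak of any other list, in either cell type. From the Arf start, the nearest NSC Ring1b peak was 11957 bp away. The Ink4a start, by contrast, lay in an ESC Ring1b peak of 3800 bp (88926601 to 88930400), in an ESC Cbx2 peak of 1400 bp (88927401 to 88928800) and in an NSC Ring1b peak of 2800 bp (88925801 to 88928600). Of the NSC peak, 2000 bp were shared with the ESC Ring1b peak. Ink4a was therefore the one annotated start among the 6 genes that lay under Ring1b in both cell types, although no H3K27me3 peak of ESCs lay nearer than 4496 bp to it. Every annotated start of the 6 genes was searched, and the share of all genes with such a start was not computed. By gene start alone, 1.18% of all genes and 0 of 6 members lay under Ring1b in both.
The 3′ part of Cdkn2a carried the widest peaks. In ESCs a Ring1b peak of 6600 bp (88917801 to 88924400), a width reached by 9.98% of that list, held the last 2 exon blocks, counted as exon blocks 3 and 4, which Ink4a and Arf share. It overlapped a Cbx2 peak of 1800 bp and H3K27me3 peaks of 1200 and 1000 bp. In NSCs a Ring1b peak of 6400 bp (88915201 to 88921600), a width reached by 8.42% of its list, held exon block 4, and a peak of 1000 bp (88923601 to 88924600) lay inside an intron. The wide NSC peak reached further past the gene than the ESC peak did and held the start, at 88919307, of Gm12606, annotated as a processed transcript. That start also lay in ESC Ring1b and H3K27me3 peaks.

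Cdkn2b (ENSMUSG00000073802.4, 88952198 to 88956941, reverse strand, 2 exon blocks) encodes p15. A gap of 11640 bp separates its gene record from that of Cdkn2a, and its start lies 16384 bp from the Arf start. Its 24.7 kb window shares 8360 bp with that of Cdkn2a, so that 2 of its 3 ESC Ring1b peaks are also counted there, including the Arf peak. Together the 3 peaks covered 5.8 kb, or 23.5% of the window, a share reached by 1.14% of all genes. The peak within Cdkn2b, from 88954601 to 88956400, lay entirely in its intron and ended 541 bp short of the start site. The peak between the genes, from 88947001 to 88950400, overlapped no exon of either. No other list had a peak in the window, and the nearest NSC Ring1b peak was 28.3 kb from the Cdkn2b start.
Over the 56.6 kb that the windows of Cdkn2a and Cdkn2b span together, ESC Ring1b covered 19000 bp (33.6%) and NSC Ring1b 10200 bp (18%). They shared 6600 bp, all within Cdkn2a and downstream of it. Of the 3200 bp under ESC Cbx2 in this stretch, all lay under ESC Ring1b and 3000 bp also under NSC Ring1b. The neighbouring protein-coding genes, Mtap and Dmrta1, had no peak of any list at their start sites.

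**Figure D2:**
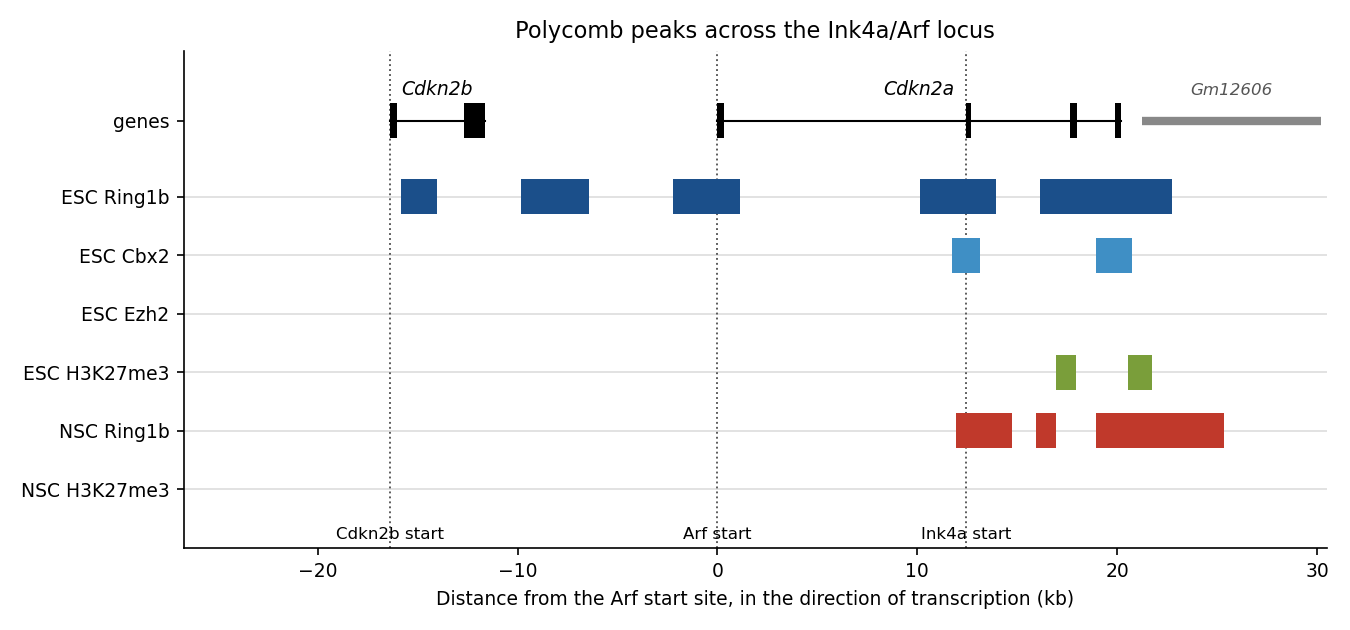
Bars are peaks of the 6 lists (rows, 1 library each) across the windows of Cdkn2a and Cdkn2b, by distance in kb from the Arf start in the direction of transcription. Black boxes are exon blocks and dotted lines start sites. ESC Ring1b has 5 peaks along the locus, and the 3 NSC Ring1b peaks lie at and beyond Ink4a, where both ESC Cbx2 peaks also lie.

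Cdkn2c (ENSMUSG00000028551.8, chromosome 4, 109333481 to 109339794, reverse strand, 3 exon blocks) encodes p18. Its 26.3 kb window was 29.6% covered by 2 ESC Ring1b peaks, a share reached by 0.944% of all genes. Cbx2 and Ezh2 covered 12.9% each, with 1 and 2 peaks, and H3K27me3 covered 5.32% with 1 peak. The Ring1b peak at the promoter (109336801 to 109339800) held both annotated starts, of which the upstream one lay 6 bp inside its edge. Ezh2 and H3K27me3 had peaks with the same edges, 109338201 to 109339600, which began 194 bp downstream of that start and lay over exon block 1. Peak edges fall on multiples of 200 bp, so that these distances are below the spacing of the lists.
The other ESC Ring1b peak near Cdkn2c, 4800 bp wide (109328401 to 109333200), lay past the 3′ end of the gene. It met Cbx2 over 3400 bp and Ezh2 over 2000 bp but no H3K27me3 peak, and all 3 held the start, at 109330458, of the lincRNA 9630013D21Rik. The NSC lists had no peak in the window. From the Cdkn2c start, the nearest NSC Ring1b peak was 2400 kb away and the nearest NSC H3K27me3 peak 2230 kb. Of the neighbours, Faf1 had no peak at its start, and Dmrta2 had ESC Ring1b, Cbx2 and Ezh2 peaks.

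Cdkn1c (ENSMUSG00000037664.6, chromosome 7, 150644255 to 150646955, reverse strand, 4 exon blocks) encodes p57 and is an imprinted gene, expressed from the maternal allele under a control region in the neighbouring gene Kcnq1. It was the one member whose start lay in ESC peaks of Ring1b, Ezh2 and H3K27me3 at once (1 of 6, against 1.92% of all genes). This rests on distances below the 200 bp spacing of the lists, since the Ezh2 peak passed the Cdkn1c start by less than that and the Ezh2 and H3K27me3 peaks at Cdkn2c missed its start by 194 bp. With a peak within 1 kb of the start accepted, both genes had all 3. The share of all genes that did so was not computed. The whole gene body lay under Ring1b (150644201 to 150647600) and under H3K27me3 (150643401 to 150647200), and 72.4% of it under Ezh2 (150645001 to 150647000). The H3K27me3 peak, at 3800 bp, was of a width reached by 11.4% of its list. Cbx2 had no peak within 799 kb of the start. A further ESC Ring1b peak (150650201 to 150652200) of 2000 bp lay upstream of the gene and met no other list.
In NSCs, Ring1b had no peak at Cdkn1c, and the nearest was 796 kb away. H3K27me3 kept a peak of 1600 bp (150645201 to 150646800), which lay wholly within the ESC H3K27me3 and Ring1b peaks and covered 59.2% of the gene body, compared with 100% in ESCs. It ended 155 bp inside the gene, short of the start. In share of the window, H3K27me3 went from 16.7% in ESCs to 7.05% in NSCs and Ring1b from 23.8% to 0. The start of Slc22a18, 12671 bp from that of Cdkn1c, had no peak, and the start of Kcnq1 lay in an ESC H3K27me3 peak only. Peaks do not separate the parental alleles.

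**Figure D3:**
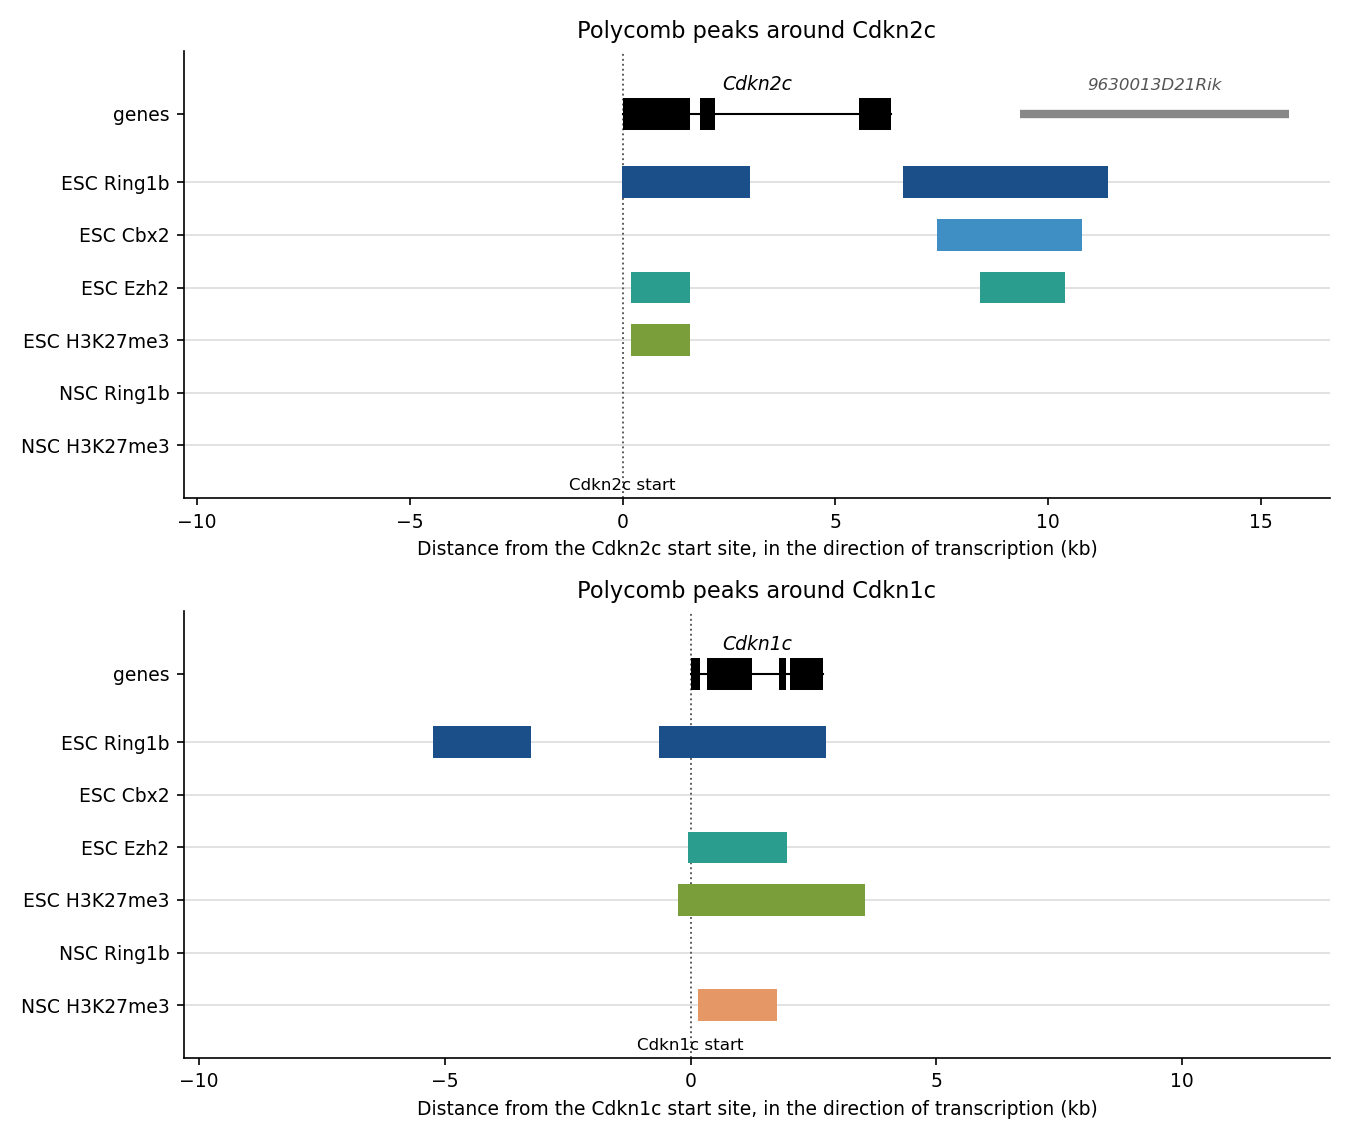
Bars are peaks of the 6 lists (rows, 1 library each) in the windows of Cdkn2c (upper panel) and Cdkn1c (lower panel), by distance in kb from the start site in the direction of transcription, with exon blocks in black. Ezh2 and H3K27me3 share 1 position at the Cdkn2c promoter, NSC peaks are missing there, and at Cdkn1c the single NSC H3K27me3 peak of 1600 bp lies inside the gene.

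Cdkn1a (ENSMUSG00000023067.7, chromosome 17, 29227924 to 29237667, forward strand) encodes p21, the inhibitor induced by p53, and Cdkn1b (ENSMUSG00000003031.8, chromosome 6, 134870419 to 134875531, forward strand) encodes p27. No list had a peak in either window, as was the case for 82.3% of all genes. The peak nearest to the Cdkn1a start was an ESC Cbx2 peak 218 kb away, and Ring1b peaks were at least 726 kb away. For Cdkn1b the nearest was an NSC H3K27me3 peak of 1400 bp, 18.8 kb downstream of the start (134889201 to 134890600) and outside the window. ESC Ring1b, Ezh2 and H3K27me3 peaks were each 1250 kb from the Cdkn1b start.
In 1001 bp centred on the gene start, the ratio of observed to expected CpGs was 0.981 at Arf, 0.905 at Cdkn1b, 0.882 at Cdkn1c, 0.742 at Cdkn2b, 0.725 at Cdkn2c and 0.126 at Cdkn1a, against a median of 0.549 over all genes. Cdkn1b, with no peak, had a higher ratio than Cdkn1c, with 3 ESC lists at its start. The Cdkn1a value is for the most upstream annotated start. At the start of the transcript Cdkn1a-001, 29230717, the ratio was 0.630, and at the Ink4a start it was 0.537. Of the 9879 genes with a ratio of at least 0.6 and a GC content of at least 50%, among them all members but Cdkn1a, 13% had their start in an ESC Ring1b peak and 3.35% in an NSC Ring1b peak. Of the other 12471 genes, 2.29% and 0.465% did. Whether CpG content bears on the peaks at the members was not tested.

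**Figure D4:**
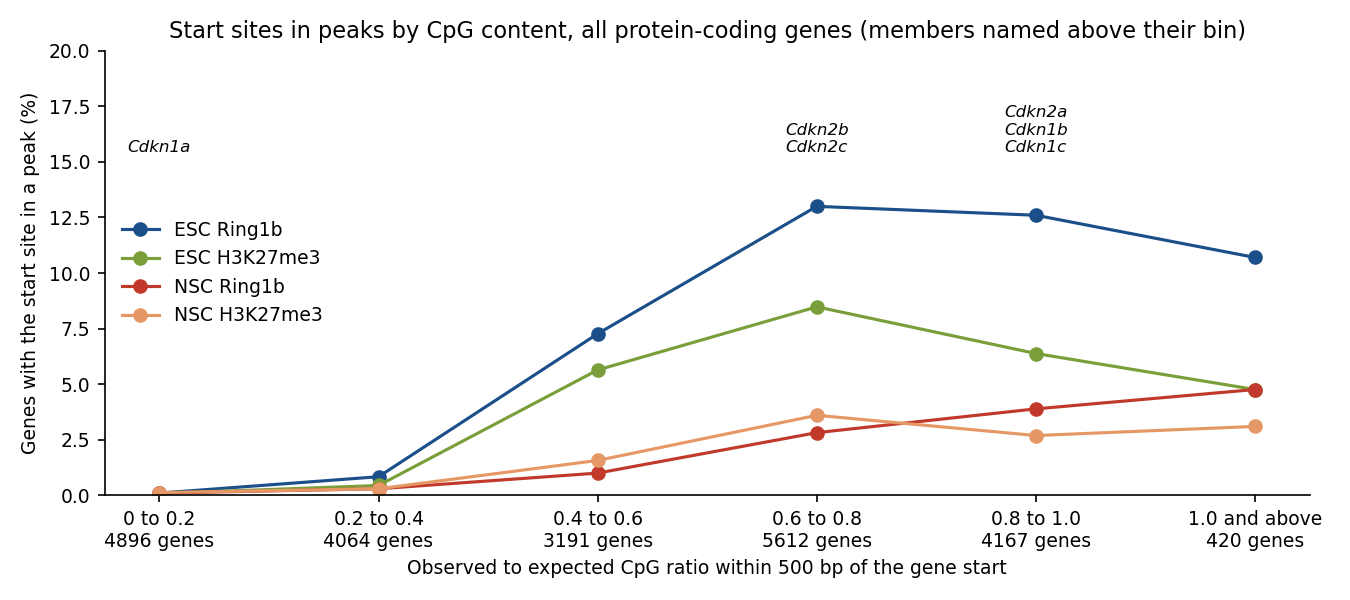
Points give the percentage of all protein-coding genes whose start lies in a peak, for Ring1b and H3K27me3 in ESCs and NSCs, by the observed to expected CpG ratio around the start. Genes of the family are named above their bin. The ESC Ring1b share goes from 0.102% in the lowest bin, which holds Cdkn1a, to 13% in the bin of Cdkn2b and Cdkn2c. It is 12.6% in the bin of Cdkn2a, Cdkn1b and Cdkn1c, and 10.7% at ratios of 1.0 and above.

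Between ESCs and NSCs, fewer of the CDK inhibitor genes lay under peaks, and the same held over all genes. Ring1b lay at the start site in ESCs alone for Cdkn2a, Cdkn2c and Cdkn1c (3 of 6, against 5.85% of all genes), in both cell types for 0 of 6 (1.18%) and in NSCs alone for 0 of 6 (0.564%). H3K27me3 lay at the start site in ESCs alone for Cdkn1c (1 of 6, 3.22%), in both for 0 of 6 (1.1%) and in NSCs alone for 0 of 6 (0.671%). The NSC H3K27me3 peak at Cdkn1c ended 155 bp from the start, and with a peak within 1 kb of the start accepted, Cdkn1c had H3K27me3 in both cell types. By window, Ring1b was found in ESCs alone at Cdkn2b, Cdkn2c and Cdkn1c (3 of 6, 8.87%) and in both at Cdkn2a (1 of 6, 2.64%). H3K27me3 was found in the window in ESCs alone at Cdkn2a and Cdkn2c (2 of 6, 7.02%) and in both at Cdkn1c (1 of 6, 2.95%). The ESC H3K27me3 peaks at Cdkn2a and Cdkn2c were narrow, at 1000 to 1400 bp. With peaks at least 2 kb wide, neither gene had one in either cell type, and Cdkn1c had one in ESCs alone. Of the 3 members whose start lay in an ESC Ring1b peak, none had an NSC Ring1b peak at that start, and of all 1571 such genes 16.7% did. By window, 1 of 4 members kept a Ring1b peak, as did 22.9% of the 2572 genes with one in ESCs. For H3K27me3, 1 of 3 members kept a peak, as did 29.6% of the 2229 genes with one in ESCs. With so few members, these shares were not compared further. No member had a Ring1b or H3K27me3 peak in its window in NSCs only, as 2% and 1.74% of all genes had. With 20 kb either side, Cdkn1b had 1400 bp under NSC H3K27me3 and none under ESC H3K27me3. Shares of all genes were not computed for peaks within 1 kb, peaks at least 2 kb wide or 20 kb either side.

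Genes that act with the CDK inhibitors were followed in a list of 26, holding Cdkn2d, CDKs, cyclins, Rb and E2F family genes, the p53 pathway, the p27 degradation genes Skp2 and Cks1b, and Bmi1. Of these, 5 had their start in an ESC Ring1b peak (19.2%, against 7.03% of all genes): Cdk6, Ccnd2, E2f6, Trp73 and Bmi1. The start sites of 3 lay in ESC H3K27me3 peaks (11.5%, against 4.31%), of 2 in Ezh2 peaks (7.69%, against 2.56%) and of 2 in Cbx2 peaks (7.69%, against 1.15%). In NSCs the start of 1 gene, Trp73, lay in Ring1b and H3K27me3 peaks (3.85%, against 1.74% and 1.77%). Cdkn2d, which encodes p19-INK4d, had no peak, nor did Cdk4, Cdk2, Ccnd1, Rb1 and Trp53.
The widest of these peaks lay over Bmi1, the PRC1 subunit known to repress Ink4a/Arf. A Ring1b peak of 29600 bp (chromosome 2, 18592801 to 18622400) covered 86% of the Bmi1 window in ESCs. Cbx2 covered 53.5% of it, H3K27me3 36.5% and Ezh2 16.9%. In NSCs, Ring1b had 4 peaks that covered 29.2%, with the start site outside them, and H3K27me3 had none. Bmi1 and Ccnd2, like Cdkn2a, had NSC Ring1b peaks in the window without NSC H3K27me3.
Ccnd2, which encodes the CDK partner cyclin D2, had its start in ESC Ring1b (9200 bp), Ezh2 (2800 bp) and H3K27me3 (2000 bp) peaks, and in NSCs a Ring1b peak in the window but not at the start. Cdk6, the kinase that INK4 proteins bind, had a Ring1b peak of 1200 bp at its start in ESCs, and in NSCs a Ring1b and an H3K27me3 peak elsewhere in the window. E2f6, a repressor of the E2F family found in a PRC1 complex, had an ESC Ring1b peak of 2400 bp at its start. No other list had a peak in the E2f6 window. Trp73, a relative of p53, had its start in peaks of all 6 lists, between 2400 and 4000 bp wide.

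**Figure D5:**
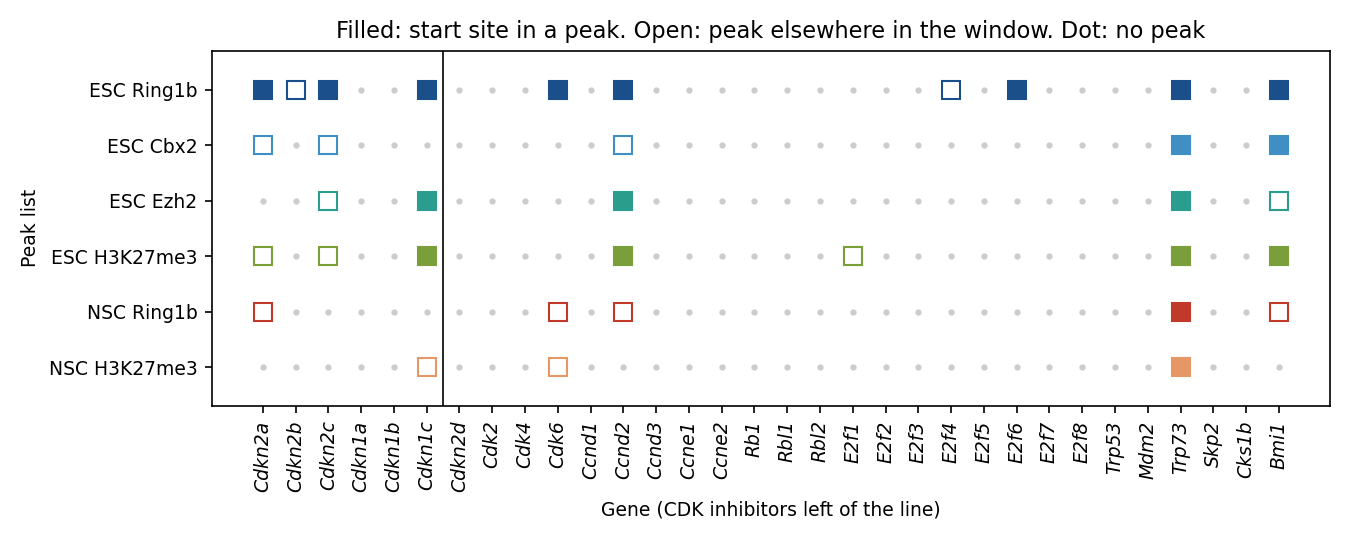
Each column is a gene, with the 6 CDK inhibitors left of the line and 26 genes of the pathway right of it, and each row is a peak list from 1 library. Filled squares mark a start site inside a peak, open squares a peak elsewhere in the window and dots no peak. Trp73 is filled in all 6 rows, and Cdkn1a and Cdkn1b have dots only.

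Peaks do not measure expression, so these lists cannot check the cell types by their markers' levels, and peaks at marker genes are given as a description. At the start sites of 6 NSC markers, ESC Ring1b peaks held 4 (Olig1, Olig2, Pax6 and Nes, against 7.03% of all genes), and NSC Ring1b and H3K27me3 peaks held 0 (against 1.74% and 1.77%). Fabp7 and Slc1a3 had no peak of any list in the window. At 5 ESC markers, Pou5f1, Nanog, Zfp42, Klf4 and Esrrb, no start site lay in a peak of any list. The Esrrb window nonetheless held ESC Ring1b, Ezh2 and H3K27me3 peaks, over 1.44%, 0.997% and 1.55% of it, and an NSC H3K27me3 peak over 1.44%. The lists also differed in size, with 2192 H3K27me3 peaks in ESCs against 1647 in NSCs, and 2335 Ring1b peaks against 1389. They differed in base composition as well. The median ratio of observed to expected CpGs was 0.642 over ESC Ring1b peaks and 0.383 over NSC Ring1b peaks. For H3K27me3 it was 0.604 in ESCs and 0.335 in NSCs. Of the Ring1b peaks, 8.14% in ESCs and 29% in NSCs were 1000 bp wide, the minimum in each list. Whether a peak that is missing in NSCs reflects less binding or a weaker library cannot be told apart with 1 library per cell type.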

How the data were processed

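ChIP-seq libraries, 1 per cell type and target, were represented by 6 lists of peaks, and the 4 input libraries were not analysed here. Each deposited file gives the chromosome, start and end of its peaks (mm9) and no other value, so that peak strength was not analysed. Per the paper, the authors mapped tags with Bowtie (the submitters' processing notes name BWA), counted tags in windows of 1 kb stepped by 200 bp, scored them against input under a negative binomial whose size parameter was set by inspection, and joined windows within 1 kb. Peak edges therefore carry the error of this grid, and a gene without a peak is one where no window was called.

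Starts were converted to 1-based positions, and peaks were counted where they shared at least 1 bp with the gene body plus 10 kb either side. Genes, transcripts and bases came from the mm9 (NCBIM37) sequence and its GENCODE annotation. The start site is the 5′ end of the gene record. A share of all genes is over 22350 protein-coding genes. A share of a list "reached" by a value counts genes or peaks with at least that value. The bases upstream of Cdkn1c are not reported here. Sox1, fixed among the NSC markers, was not analysed. The members and lists were chosen with earlier results of these data known. Genes named are the members, genes of the pathway list, genes that overlap a window and the nearest protein-coding genes on each side. With 1 library per group, no test was made. Overlap code was tested on simulated data and was correct for 200 of 200 windows. Python 3.11.15, numpy 2.4.6 and matplotlib 3.10.9 were used.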

Additional observations from a re-analysis of the deposited data

How the results depend on the processing

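No paired analysis was possible because each group has 1 library and the result comes from no test. Other windows, peaks at least 2 kb wide, peaks merged within 3 kb, an overlap of 50% of the peak and other definitions of the start site were tried. Of 90 recomputed counts and sums, 72 were within 1.5 times the value reported and 18 moved. The 72 include start-site counts of 0 that could not move when only peaks at least 2 kb wide were kept. The count of members with an ESC Ring1b peak in the window was 4 under all 6 alternatives, and that of start sites in one was 3 under all but a peak within 1 kb of the start, which gave 4. With any annotated transcript start in place of the gene start, Cbx2 and NSC Ring1b peaks each held 1 member start in place of 0, in both cases Ink4a. With a peak within 1 kb of the start, Ezh2 and ESC H3K27me3 gave 2 members in place of 1 and NSC H3K27me3 gave 1 in place of 0. Among the alternatives, shares of all genes were computed only for any annotated transcript start. Changes in the other counts therefore cannot be set against those over all genes. With 20 kb either side, NSC H3K27me3 lay at 2 members in place of 1, through Cdkn1b, and covered 3000 bp. With peaks at least 2 kb wide, Cbx2 lay in 1 window (3400 bp covered), ESC H3K27me3 in 1 (3800 bp) and NSC H3K27me3 in 0 (0 bp). The Cbx2 window left was that of Cdkn2c. Both Cbx2 peaks at Cdkn2a, including the one at the Ink4a start, dropped out. Of all Cbx2 peaks, 33% had the minimum width of 1000 bp. The ESC H3K27me3 window left was that of Cdkn1c, and Cdkn2a and Cdkn2c dropped out. The H3K27me3 call at Cdkn1c in NSCs rests on 1 peak of 1600 bp. With the gene body alone, Cbx2 lay at 1 member, and the bases covered were 16476 for ESC Ring1b, 2624 for Cbx2, 3355 for Ezh2 and 5024 for NSC Ring1b, since the window is shorter.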
